A study of Mus musculus with 6 samples.

Results

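Of the 55573 rows in the deposited table of Hepa1-6 cells, 159 belong to no annotated gene and carry a placeholder name with a running number. The rule for these 159 unannotated transcribed features was that placeholder alone and used no measured value, though earlier results of these data were known. They are called here by their numbers, feature 67 being the one the table numbers 67. The other 55414 rows are annotated genes. Bulk RNA-seq was made of 3 libraries labelled Matr3 knockout, made with CRISPR/Cas9, and 3 libraries labelled wild type. Both groups are Hepa1-6 cells, a line of mouse liver cancer cells grown in DMEM with fetal bovine serum. Whether the libraries within a group are separate cultures, and whether the knockout is 1 clone or several, is not in the labels, so p-values cover the spread between these 6 libraries alone, and that spread may be technical. Library totals ran from 20736570 to 30794032 counts. The comparison asks which features differ in the libraries labelled Matr3 knockout.

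Unannotated features arise when reads are joined into transcript models at places where the reference annotation lists no gene. Such models are known to include RNA made in the opposite direction from an active promoter, RNA that runs on past the end of a gene, copies of retroelements, pseudogene-like copies and genes that a reference assembly has incomplete. Many of these RNAs are short-lived in the nucleus, where the RNA exosome, a complex of exonucleases, degrades them. Matrin 3, the product of Matr3, is a nuclear protein that binds RNA and DNA and is known to bind introns and to limit splicing there.

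In the libraries labelled knockout, Matr3 was at 75.3 to 86.1 CPM (the count scaled to a common library size after TMM adjustment) and in the wild type at 125 to 134 CPM, a log2 fold change of -0.71 (edgeR quasi-likelihood adjusted p = 0.00270), so its mRNA was lower but present. The 12 hepatocyte and hepatoma markers summed to 18.7 to 26.8 CPM in the knockout and 22.3 to 25.9 CPM in the wild type, and Ttr and Serpina1a were at 0 in all 6 libraries. Foxa2, a liver transcription factor, and Afp, the fetal serum protein, gave most of that sum, while the albumin gene Alb averaged 0.0106 CPM in the knockout and 0 in the wild type. Among markers of other cell types, the 4 cholangiocyte markers summed to 645 to 684 CPM against 287 to 316, nearly all from the keratin gene Krt19, and Krt7 averaged 0 against 0.0156. The 5 fibroblast markers summed to 19.8 to 28.6 against 14.4 to 16.4 and the 4 endothelial markers to 0.844 to 1.53 against 2.85 to 3.56. The 5 leukocyte markers summed to 0 to 0.0703 against 0.0761 to 0.150, with Cd3e and Adgre1 at 0 in every library. The part of these markers in the results was not tested.

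Together the 159 features took 0.242% of all counts. A count in at least 1 library was present for 152 features, and 139 passed the filter on low counts and were tested. The 7 features with no count in any library each overlap another of the 159 features on the opposite strand. How reads in such overlaps were counted is not given in the sources, so these 0 values need not mean that RNA was absent. Another 13 features had counts but too few to be tested. By mean level, 51 features were under 1 CPM, 82 lay from 1 to 10 CPM and 26 were at 10 CPM or more. Per length, the median of the tested features was 1.59 FPKM, against 5.77 FPKM for the tested annotated rows.

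A few features held most of these counts. The 2 with the most counts, features 56 and 138, took 44.6% of all counts on unannotated features, and with feature 67 the top 3 took 58.3%. The highest level per length was that of feature 138 at a mean of 1008 FPKM, followed by feature 56 at 110 FPKM, feature 67 at 75.7 FPKM and feature 84 at 73.2 FPKM. After these came feature 121 at 24.2 FPKM, feature 115 at 21.9 FPKM, feature 4 at 21.7 FPKM and feature 76 at 17.4 FPKM. The models ranged in transcript length from 210 to 11554 bases, with a median of 1437 bases. Of the 159, 88 models contain an intron and 71 do not, and 91 lie on the plus strand and 68 on the minus strand. Chromosome 2 held 13 of them, chromosomes 3 and 11 held 12 each, and 11 lay on unplaced scaffolds.

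Single libraries stood apart in part of these features. Wild-type library 1 was the highest of the 6 libraries in 63 of the 139 tested features, 45.3%, against 22.4% of all tested rows. In 112 of all tested rows wild-type library 1 was more than 3-fold above the next library, and 7 of these rows were unannotated features. Knockout library 2 was more than 3-fold above the next library in 3 tested rows, of which feature 141 was 1. These features were singled out after their values were seen.

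On scaffold MU069435.1, which holds 5 features and no annotated row, feature 143 was at 1.51, 1.15 and 1.13 CPM in knockout libraries 1, 2 and 3 and at 9.43, 2.32 and 2.51 CPM in wild-type libraries 1, 2 and 3. The neighbouring feature 144 was at 0.388, 0.351 and 0.457 CPM in the knockout against 4.48, 0.561 and 1.07 CPM in the wild type. In both, the groups did not overlap and wild-type library 1 was several times above the other libraries, and neither passed the test (log2 fold changes -1.91 and -2.32, edgeR quasi-likelihood adjusted p = 0.0526 and 0.0729). The first feature of that scaffold, feature 141, went another way, with 0.775, 16.0 and 0.668 CPM in the knockout and 4.43, 0.898 and 0.837 CPM in the wild type. Its high values were those of knockout library 2 and wild-type library 1. Without these 2 libraries the log2 fold change of feature 143 was -0.89 (adjusted p = 0.0220), that of feature 144 was -0.93 (adjusted p = 0.130), and that of feature 141 went from 1.54 to -0.27 (adjusted p = 0.594).

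The same 2 libraries were the highest for feature 83 on chromosome 3, with counts of 21, 372 and 35 in the knockout and 88, 39 and 24 in the wild type. Its log2 fold change was 1.15 (adjusted p = 0.452), and without both libraries it was -0.14 (adjusted p = 0.779). The 7 features on chromosome Y were all highest in wild-type library 1. Among them feature 155 was at 4.95, 2.27 and 3.90 CPM in the knockout against 21.5, 2.10 and 1.64 CPM in the wild type. None of the 6 tested Y features passed the test, and none had groups that did not overlap. For feature 155 the log2 fold change was -1.17 (adjusted p = 0.407), and without wild-type library 1 it was 1.00 (adjusted p = 0.124). Over the other 4 libraries, with knockout library 2 left out as well, the value was 1.24 and passed (adjusted p = 0.000883). For features described below that passed over these 4 libraries but not over all 6, that value is given too. The 2 libraries left out are those seen to stand apart, and over the other 4 libraries 7556 of 14825 tested rows passed. Passing there therefore does not set a feature apart, and such values show only how a result depends on the libraries.

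**Figure D1:**
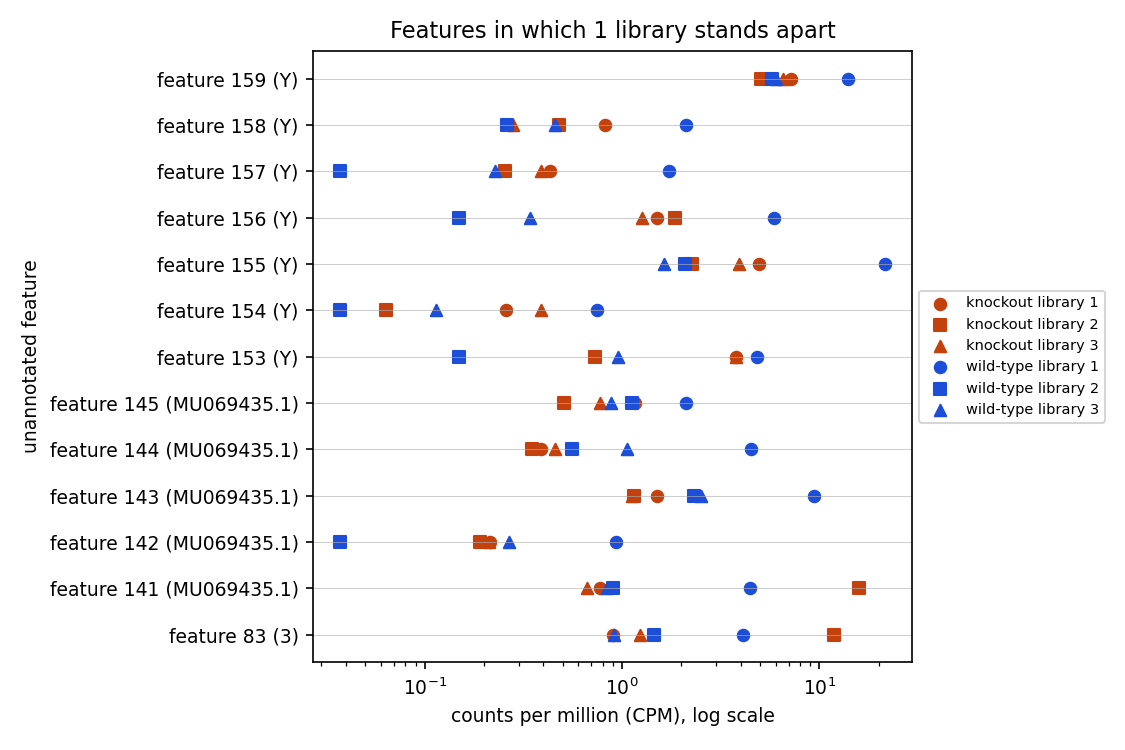
Levels in CPM (log axis) of 13 features in each library, with the chromosome or scaffold in brackets; orange marks knockout and blue wild-type libraries, and circles, squares and triangles are libraries 1, 2 and 3. Wild-type library 1 is the highest point for the 7 Y features and for features 142 to 145, and knockout library 2 for features 141 and 83.

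Between the groups, 22 of the 139 tested features passed the test, 15.8%, near the 15.2% of all tested rows that did (quasi-likelihood test of edgeR, with p adjusted by the Benjamini-Hochberg method over all 14842 tested rows and called under 0.05). Of these features, 9 rose, where 7.69% of all tested rows rose, and 13 fell, where 7.48% of all tested rows fell. The other 117 did not pass. Over the tested features 55 log2 fold changes were above 0 and 84 below, with a median of -0.19 against -0.02 over all tested rows. The 2 groups did not overlap in 51 of the 139 tested features, 36.7%, against 36.6% of all tested rows. The number that passed depended on the libraries, as did that of all tested rows. It was 7 without knockout library 1 (861 of 15308 rows in all) and 11 without knockout library 3 (832 of 15315). Without wild-type library 2 it was 12 (931 of 15327), and without wild-type library 3 it was 10 (807 of 15291). Leaving out knockout library 2 alone gave 32 (4295 of 15286), and wild-type library 1 alone 17 (2027 of 15041). With knockout library 2 and wild-type library 1 both left out, 59 passed, when 7556 of 14825 rows passed in all.

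The summed level of the 159 features was 2037, 2353 and 2044 CPM of the unadjusted library totals in the knockout, against 2762, 2621 and 2731 CPM in the wild type. All wild-type libraries were above all knockout libraries, with means of 2145 ± 180 and 2705 ± 74.0 (SD, n = 3 each). Most of this gap belonged to 1 feature: without feature 67 the sums were 1917, 2233 and 1919 in the knockout and 2240, 2044 and 2156 in the wild type, and the groups overlapped.

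The feature that moved most clearly was feature 67, a 4499-base model without an intron on the plus strand of chromosome 2, from 75468721 to 75473219. Its levels in CPM were 119, 118 and 126 in the knockout libraries and 505, 596 and 589 in the wild-type libraries. Every knockout library was thus under every wild-type library by several times. Group means of 121 ± 4.62 and 564 ± 50.6 CPM (SD, n = 3 each) give a 4.66-fold fall (log2 fold change -2.22, SE 0.101, edgeR quasi-likelihood adjusted p = 5.09e-05). Its nearest annotated row lies 1 to 5 kb away on the opposite strand and was not tested. The nearest tested row is Hnrnpa3, on the same strand, and the feature lies 16386 bases upstream of it. Hnrnpa3, which encodes an RNA-binding protein of the hnRNP A/B family, was at 55.8, 74.3 and 53.2 CPM in the knockout and 141, 91.6 and 98.4 CPM in the wild type, and it also fell (log2 fold change -0.85, adjusted p = 0.0213). The ratio of feature 67 to Hnrnpa3 fell by 1.37 on the log2 scale (SE 0.240, limma adjusted p = 0.00786), so the feature fell further than that gene. Farther off lies Nfe2l2, the gene of the oxidative stress factor NRF2, 32638 bases away, with a log2 fold change of -0.34 (adjusted p = 0.0959). A second unannotated feature of this locus, feature 66, 22180 bases from feature 67, did not pass (-0.70, adjusted p = 0.0843). The opposite-strand model feature 75, which overlaps feature 67, had no count in any library. The strandedness of the libraries is not stated, so that 0 does not show that no RNA was made from that strand.

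On chromosome 8, from 5267683 to 5269480 on the plus strand, feature 121 also fell. It was at 7.62, 6.83 and 5.91 CPM in the knockout against 17.8, 20.8 and 22.4 CPM in the wild type (log2 fold change -1.59, SE 0.146, adjusted p = 0.000796). No library of one group came near the other group. The only other tested row within 100 kb is the pseudogene Gm5605, 99018 bases away, at -0.43 (adjusted p = 0.487).

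Next to Spsb2, feature 115 fell where its neighbour rose. The feature, a 5662-base model without an intron on the minus strand of chromosome 6 from 124773746 to 124779407, was at 69.4, 99.6 and 65.2 CPM in the knockout against 169, 159 and 184 CPM in the wild type. Knockout library 2 was the highest of its group, still below each wild-type library. The fall was 2.19-fold (log2 fold change -1.13, SE 0.161, adjusted p = 0.00402). Spsb2, which encodes a SOCS-box adaptor of ubiquitin ligases, lies 6217 bases away head to head, meaning on the opposite strand with the starts facing each other. It rose in the knockout (log2 fold change 0.94, adjusted p = 0.0254), and the ratio of feature 115 to it fell by 2.05 on the log2 scale (SE 0.351, limma adjusted p = 0.00729). The abundant glycolytic gene Tpi1, 8142 bases away on the feature's own strand, was at 0.22 (adjusted p = 0.185). Farther off, Eno2, a neuronal enolase gene on the same strand 27110 bases away, fell (-1.58, adjusted p = 0.0335), and Lpcat3, a phospholipid acyltransferase gene 92365 bases away, rose (0.49, adjusted p = 0.0122). The other 9 tested rows within 100 kb did not pass.

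Lower levels but similar falls were those of features 44 and 57. The first was at 0.818, 0.894 and 1.06 CPM in the knockout and 4.34, 3.52 and 2.13 CPM in the wild type, a log2 fold change of -1.84 (SE 0.326, adjusted p = 0.00924). Its nearest gene Tsc22d1, a leucine zipper factor induced by TGF-beta, did not pass (0.29, adjusted p = 0.0558), and the ratio of the feature to it fell by 2.01 on the log2 scale (limma adjusted p = 0.00690). In the major histocompatibility region of chromosome 17, feature 57 was at 2.15, 1.69 and 2.25 CPM in the knockout and 6.44, 4.08 and 4.22 CPM in the wild type (log2 fold change -1.27, SE 0.252, adjusted p = 0.0142). The class I gene H2-Q10, 3923 bases from feature 57, had 1 count in all 6 libraries, and the nearest tested gene was Tcf19, 32934 bases away, at 0.23 (adjusted p = 0.0848).

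Other falls among the 14 features with the smallest p were those of features 77, 84, 61, 78 and 102, with log2 fold changes from -0.94 for feature 78 to -0.54 for feature 102. In each of these 5 the groups did not overlap. Their calls were less stable than those above: feature 102 passed in 9 of 15 alternative analyses, feature 77 in 11, features 61 and 78 in 12 each and feature 84 in 13. By contrast, features 67, 121, 118, 137, 115, 126 and 44 passed in all 15.

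Among the rises, the smallest p was that of feature 118, a spliced model on the plus strand of chromosome 7 from 49288796 to 49298030. It was at 9.34, 8.42 and 9.88 CPM in the knockout against 2.89, 2.13 and 3.35 CPM in the wild type. Each knockout library was more than 2 times above each wild-type library, and the rise was 3.30-fold (log2 fold change 1.72, SE 0.198, adjusted p = 0.00190). The nearest annotated gene, Dbx1, a homeobox gene of the embryonic nervous system, lies 2199 bases away head to head and had 15 counts over all 6 libraries, too few to test. Nav2, a neuron navigator gene on the same strand, whose end lies 28958 bases upstream of feature 118, was at 12.7, 13.4 and 12.9 CPM in the knockout and 13.7, 13.8 and 12.8 CPM in the wild type. The ratio of feature 118 to Nav2 rose by 1.76 on the log2 scale (SE 0.229, limma adjusted p = 0.00245).

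A 1.92-fold rise was measured for feature 126 on chromosome 8, from 110477534 to 110489338, which was at 10.6, 8.97 and 8.86 CPM in the knockout against 4.81, 5.65 and 4.34 CPM in the wild type (log2 fold change 0.94, SE 0.162, adjusted p = 0.00825). The 2 genes on either side, Atxn1l at 0.07 (adjusted p = 0.738) and Ap1g1 at -0.07 (adjusted p = 0.709), did not pass. On chromosome 11, feature 16 was at 6.93, 7.15 and 5.87 CPM in the knockout against 3.69, 2.99 and 4.07 CPM in the wild type (log2 fold change 0.89, SE 0.184, adjusted p = 0.0164). Neither feature's groups overlapped.

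The 8 features that passed with larger p, named after their values were seen, were 5 rises and 3 falls. The largest in size was feature 98 on chromosome 4, with counts of 24, 16 and 33 in the knockout and 3, 8 and 5 in the wild type (log2 fold change 2.05, adjusted p = 0.0305). Its neighbour Gm13203, a long noncoding RNA 3151 bases away head to head, was at 1.42 (adjusted p = 0.0556). The lowest level was that of feature 5, with counts of 5, 4 and 6 against 11, 19 and 18 (log2 fold change -1.78, adjusted p = 0.0313). The others were feature 10 (log2 fold change 1.04), feature 90 (0.52), feature 94 (0.48), feature 105 (0.40), feature 47 (-1.13) and feature 132 (-1.51), with adjusted p from 0.0305 to 0.0465. Each of the 8 lost its call in 4 to 9 of its 14 or 15 alternative analyses, among them leaving out knockout library 1 for all 8.

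**Figure D2:**
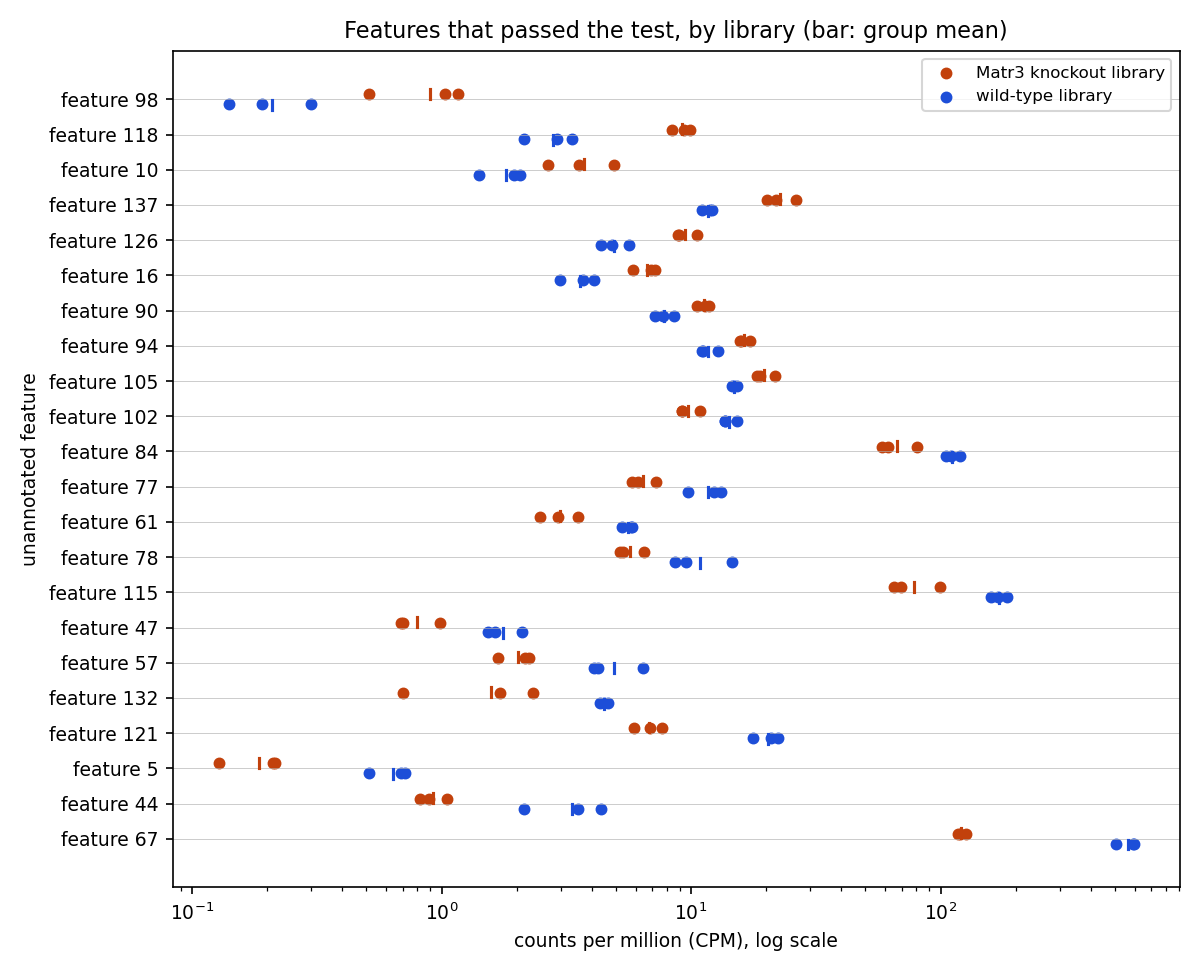
Levels in CPM (log axis) of the 22 features that passed the test, in order of log2 fold change; each point is a library, orange for the 3 knockout and blue for the 3 wild-type libraries, and the bar is the group mean. The 2 groups are apart in every feature shown, most widely in feature 67 at 118 to 126 against 505 to 596 CPM.

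The 2 most abundant features by count did not pass the test. The first, feature 56, was at 524, 562 and 549 CPM in the knockout and 516, 581 and 598 CPM in the wild type, and the groups overlapped (log2 fold change -0.05, SE 0.0930, adjusted p = 0.739). Over the 4 libraries without knockout library 2 and wild-type library 1, feature 56 passed at -0.14 (adjusted p = 0.0229). Feature 56 is listed with the Pfam domain of a retroviral envelope polyprotein and starts 196 bases head to head from Vars, the valyl-tRNA synthetase gene. Vars itself was at 0.01 (adjusted p = 0.957). The second, feature 138, lies on scaffold GL456382.1 and is listed with the ubiquitin and ribosomal protein S27a domains, the layout of the gene Rps27a. It was at 471, 661 and 462 CPM in the knockout and 450, 502 and 545 CPM in the wild type (log2 fold change 0.09, SE 0.153, adjusted p = 0.722). Knockout library 2 was the highest of the 6 for this feature, and without that library and wild-type library 1 the log2 fold change was -0.17 (adjusted p = 0.0131). Reads of a near-identical gene copy could be split between copies in the counting, so the level of feature 138 is uncertain.

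Of the others with a high level per length, feature 4 on chromosome 1 was at 8.05, 3.67 and 10.6 CPM in the knockout and 9.10, 6.29 and 8.10 CPM in the wild type (log2 fold change -0.07, adjusted p = 0.906), and over those 4 libraries it was at 0.38 (adjusted p = 0.0753). Its model ends 251 bases from the pseudogene Smt3h2-ps4 on the same strand. On chromosome 2, feature 76 was at 13.6, 18.6 and 13.9 CPM in the knockout and 10.4, 10.9 and 12.7 CPM in the wild type. Its groups did not overlap, yet it did not pass (log2 fold change 0.44, adjusted p = 0.101). The gene next to it on the same strand, Prrg4, which encodes a membrane protein with a vitamin K-dependent domain, rose by a similar amount (0.34, adjusted p = 0.0292).

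**Figure D3:**
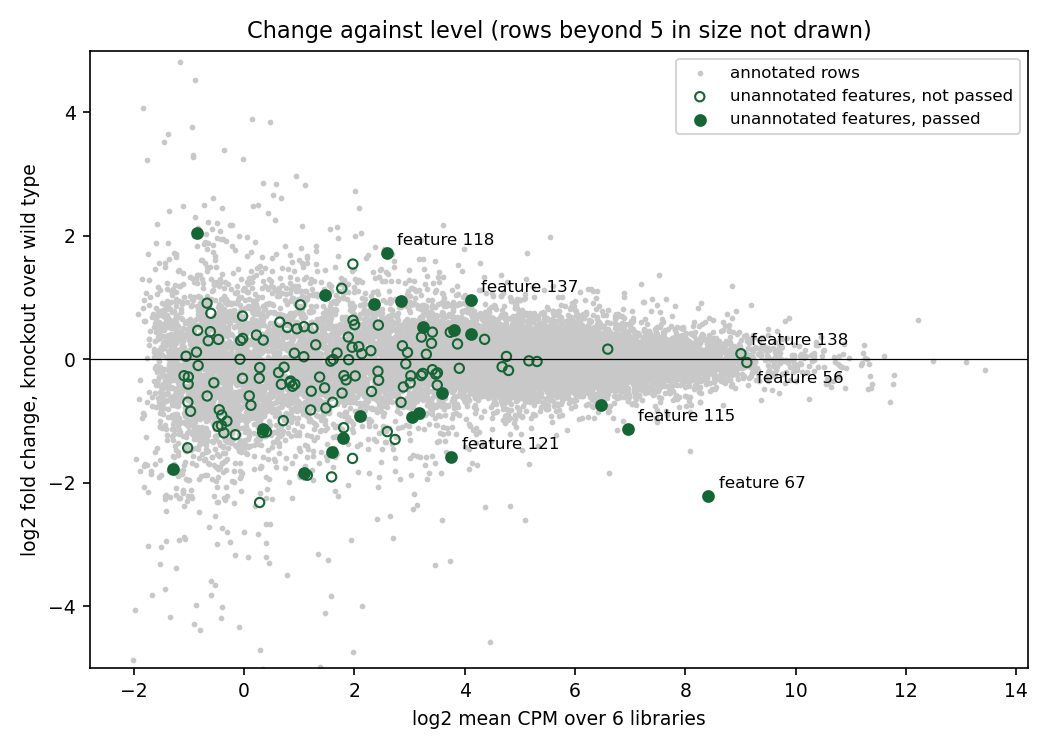
Log2 fold change of knockout over wild type against the log2 of the mean CPM over 6 libraries for the tested rows; grey points are annotated rows and green circles the 139 tested features, filled for the 22 that passed. The 2 most abundant features, numbers 56 and 138, lie near 0, and feature 67 lies at -2.22.

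At the low end, feature 39 on chromosome 13 had no count in the knockout libraries and 9, 0 and 1 counts in the wild-type libraries. Against a floor of 3 counts over the group the level was at least 3.72-fold lower in the knockout, but 9 of the 10 counts came from wild-type library 1. Without that library both groups are under the floor and no fold can be given. The feature with the shortest genomic span among those with at least 10 counts, feature 127 with 263 bases on chromosome 8, had counts of 45, 7 and 78 in the knockout and 61, 54 and 42 in the wild type, so the spread inside the knockout exceeded the difference between the groups (log2 fold change -0.40, SE 0.675, adjusted p = 0.720). Without knockout library 2 it was at 0.14 (adjusted p = 0.793). Another feature with such a spread was feature 40, chosen after its values were seen, with counts of 16, 131 and 24 in the knockout and 101, 136 and 209 in the wild type (log2 fold change -1.61, adjusted p = 0.113). Without knockout library 2 feature 40 was at -2.93 and passed (adjusted p = 0.000902), and it also passed over the 4 libraries.

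The deposited table lists Pfam domains for 32 of the 159 features, and for the other 127 it lists none. Among the features with no domain, 5 rose and 10 fell of 110 tested, 13.6%, where 15.2% of all tested rows passed. Retroelement domains, which belong to the proteins of endogenous retroviruses and L1 elements, were listed for 10 features, all tested. In this class 2 rose, 1 fell and 7 did not pass, with a median log2 fold change of 0.01. Zinc finger or KRAB domains, found in the large family of repressors that bind retroelements, were listed for 10 features. Of the 9 tested, 1 rose, 1 fell and 7 did not pass, with a median of -0.26. Other domains were listed for 12 features, of which 10 were tested, with 1 rise and 1 fall and a median of -0.13. These 3 classes thus had 3 calls of 10, 2 of 9 and 2 of 10, too few to set against that share. These counts also moved with the libraries. Without wild-type library 1, 2027 of 15041 rows passed in all. The retroelement class then had 1 call, shared with none of the 3, and the zinc finger class 0. With knockout library 2 and wild-type library 1 both left out, 7556 of 14825 rows passed in all. The retroelement class then had 7 calls of 10 and the zinc finger class 4 of 9.

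Among the retroelement features, feature 105 on chromosome 5 is listed with gag, protease, dUTPase and reverse transcriptase domains. It was at 18.8, 21.7 and 18.4 CPM in the knockout and 14.6, 14.8 and 15.2 CPM in the wild type, a rise of 1.32-fold (log2 fold change 0.40, SE 0.110, adjusted p = 0.0431). The gag matrix domain marks features 94, 123 and 132, which went in different directions. The first rose, at 15.7, 17.2 and 15.8 against 11.1, 12.9 and 11.1 CPM. The last fell, at 1.72, 0.702 and 2.32 against 4.67, 4.49 and 4.30 CPM, and feature 123 was at -0.38 (adjusted p = 0.108) and over the 4 libraries passed at -0.51 (adjusted p = 0.00716). Of the 2 features on chromosome 3 with nearly complete sets of retroviral enzyme domains, feature 89 was at 98.3, 108 and 100 CPM in the knockout and 104, 86.0 and 83.2 CPM in the wild type (log2 fold change 0.16, adjusted p = 0.338), and feature 88 was at 0.26 (adjusted p = 0.487). The groups overlapped in both. Over the 4 libraries both passed, at 0.23 (adjusted p = 0.00244) and 0.55 (adjusted p = 0.00362). The 1 feature with L1 domains, feature 147 on chromosome X, was at 8.87, 7.47 and 8.93 CPM in the knockout and 12.8, 9.13 and 8.45 CPM in the wild type (-0.26, adjusted p = 0.370).

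Among the zinc finger features, feature 102 on chromosome 5 carries a KRAB box and a zinc finger domain and fell, at 9.22, 10.9 and 9.18 CPM in the knockout against 15.4, 13.7 and 13.6 CPM in the wild type (log2 fold change -0.54, SE 0.127, adjusted p = 0.0265). Its nearest gene Thoc2l was at -0.47 (adjusted p = 0.0580), and the ratio of the feature to that gene was at -0.08 (limma adjusted p = 0.735). A C2H2 zinc finger domain is listed for feature 10 on chromosome 10, which rose (log2 fold change 1.04, SE 0.291, adjusted p = 0.0465) from counts of 42, 55 and 37 in the wild type to 62, 154 and 101 in the knockout. With knockout library 2 left out it no longer passed. Genes of this family share near-identical stretches, so counts on single members are uncertain.

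**Figure D4:**
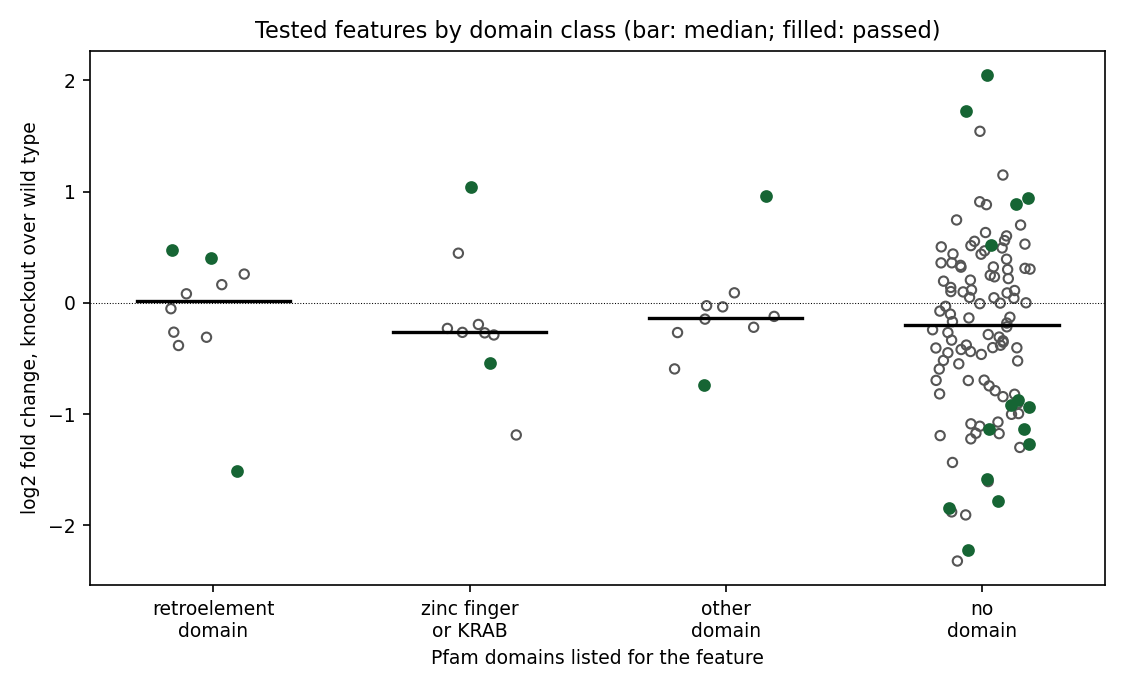
Log2 fold change of knockout over wild type for the 139 tested features by the Pfam domains the table lists; each circle is a feature, filled where it passed, and the bar is the class median. The medians are 0.01, -0.26, -0.13 and -0.20 from left to right, and filled points lie on both sides of 0 in each class.

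Some features are listed with the domains of genes that the table does not name. On scaffold GL456233.2 the 3 features 135, 136 and 137 are listed with the domains of a gamma-butyrobetaine hydroxylase-like dioxygenase, of synaptobrevin and of Sprouty. The GENCODE M21 annotation lists Tmlhe, Vamp7 and Spry3, genes of a dioxygenase of carnitine synthesis, a vesicle SNARE and a Sprouty protein, on the earlier version of this scaffold, and no row of the deposited table carries these 3 symbols. Whether each feature is that gene was not tested, because no sequence of the table's build was at hand. The Sprouty feature, number 137, rose: it was at 21.8, 26.4 and 20.1 CPM in the knockout against 11.1, 11.9 and 12.1 CPM in the wild type, 1.95-fold (log2 fold change 0.96, SE 0.131, adjusted p = 0.00329). All knockout libraries were above all wild-type libraries. Sprouty proteins are known as inhibitors of receptor tyrosine kinase signalling. The other features of the scaffold did not pass, with feature 136 at 30.5, 41.7 and 34.4 against 33.4, 35.0 and 40.2 CPM and feature 135 at 12.6, 17.5 and 12.5 against 14.2, 15.0 and 18.0 CPM. Over the 4 libraries feature 135 passed at -0.39 (adjusted p = 0.0120).

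On scaffold MU069434.1 lies feature 140, listed with the domains of HJURP, the chaperone that loads the centromeric histone. It was at 38.4, 37.0 and 42.4 CPM in the knockout and 42.9, 40.5 and 37.4 CPM in the wild type, with overlapping groups (log2 fold change -0.04, SE 0.0972, adjusted p = 0.833). On chromosome 3, feature 84, listed with a histidine phosphatase domain, fell 1.67-fold. Its levels were 61.8, 80.6 and 58.1 CPM in the knockout and 106, 110 and 119 CPM in the wild type (log2 fold change -0.74, SE 0.132, adjusted p = 0.00944). Near the end of chromosome X, features 148, 151 and 152 lie beside Asmt, the last enzyme of melatonin synthesis, which had 2 counts in all 6 libraries. Knockout library 2 was the lowest library in all of these, as in feature 148 with 33.7, 11.6 and 37.2 CPM in the knockout against 28.6, 28.7 and 22.4 CPM in the wild type, and none passed. Over the 4 libraries without knockout library 2 and wild-type library 1, feature 148 passed at 0.47 (adjusted p = 0.00262) and feature 152 at 0.52 (adjusted p = 0.0164).

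No feature overlaps an annotated row of the table, so each can be placed by its distance to the nearest one. That distance was at most 1 kb for 38 features, 1 to 5 kb for 36, 5 to 50 kb for 64 and over 50 kb for 11, and the other 10 lie on scaffolds with no annotated row. Within 1 kb of an annotated row 2 of 36 tested features passed, both as rises. From 1 to 5 kb 3 rose and 5 fell of 24 tested, from 5 to 50 kb 3 rose and 7 fell of 61, and beyond 50 kb 1 fell of 9. The shares that passed were 5.56%, 33.3%, 16.4% and 11.1% in this order, against 15.2% of all tested rows. By direction, 50 features lie head to head with the nearest row, 29 tail to tail, 43 upstream of it on its strand and 27 downstream of it on its strand. Of the models with no intron 1 rose and 8 fell of 60 tested, and of those with an intron 8 rose and 5 fell of 79, or 15.0% and 16.5% in all. The differences between these classes were not tested. The sources used here do not state the strandedness of the libraries, so reads from a feature and from an opposite-strand neighbour that it runs into cannot be told apart.

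Close head-to-head pairs are the layout in which 1 promoter region faces both ways. Of the 38 features within 1 kb, 15 lie head to head with an annotated row, at gaps of 19 to 980 bases, and 14 of these were tested. Log2 fold changes were above 0 in 7 of the 14 and below 0 in 7. The 2 that passed, 14.3% against 15.2% of all tested rows, both rose. The first, feature 90, was at 11.4, 10.5 and 11.8 CPM in the knockout and 7.75, 8.57 and 7.15 CPM in the wild type (log2 fold change 0.52, SE 0.131, adjusted p = 0.0329). The other, at 176 bases from Selenoi, which encodes an ethanolamine phosphotransferase of phospholipid synthesis, was feature 105, the retroelement feature described above. Selenoi was at 86.2, 90.2 and 85.2 CPM in the knockout and 88.9, 99.7 and 105 CPM in the wild type (log2 fold change -0.17, adjusted p = 0.257), and the ratio of feature 105 to it rose by 0.56 (SE 0.125, limma adjusted p = 0.0198).

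The opposite case was feature 6, at 267 bases from Bzw1, which encodes a translation regulator of the eIF5 family. Bzw1 fell (log2 fold change -0.51, adjusted p = 0.0376), while feature 6 had counts of 17, 33 and 30 in the knockout and 25, 25 and 20 in the wild type (0.00, SE 0.326, adjusted p = 0.998). The ratio did not pass (0.51, limma adjusted p = 0.355). At a gap of 26 bases, feature 21 and Mafg, a small Maf factor of the oxidative stress response, were at 0.55 (adjusted p = 0.0656) and 0.34 (adjusted p = 0.161). The groups did not overlap in feature 21, with 6.40 to 6.46 CPM in the knockout and 4.48, 5.05 and 3.61 CPM in the wild type, and over the 4 libraries it passed at 0.57 (adjusted p = 0.0212).

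RefSeq promoter windows of GRCm38.p6 were found for 6 of the 14 genes that face these 15 features. Over the 250 bases before each gene's start, the windows held 16 to 32 CG dinucleotides with a median of 21. Over 32851 such windows, of genes expressed in these cells or not, the median was 6. Windows of the tested genes alone were not compared. The motif GGGCGG, searched on both strands, was in 5 of the 6 windows and in 32.7% of all windows, CCAAT in 2 and in 33.8%, and TATAAA in 0 and in 12.4%. At 250 bases, the Selenoi and Mafg windows are longer than the gaps of 176 and 26 bases to features 105 and 21. Where the features lie in relation to the windows was not determined. The 3 windows below belong to the genes of the pairs just described, with CG in capitals, 5′ to 3′ on the gene's strand. They lie at chr5:30232331-30232580 on the plus strand (Selenoi), chr1:58392648-58392897 on the plus strand (Bzw1) and chr11:120633548-120633797 on the minus strand (Mafg), in GRCm38.p6, so these positions cannot be set beside the table's coordinates.
Selenoi: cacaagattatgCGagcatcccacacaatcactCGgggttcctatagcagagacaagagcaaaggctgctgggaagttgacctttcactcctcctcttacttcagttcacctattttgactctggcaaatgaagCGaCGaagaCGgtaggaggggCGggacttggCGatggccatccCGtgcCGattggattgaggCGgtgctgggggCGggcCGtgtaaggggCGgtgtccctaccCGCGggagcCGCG
Bzw1: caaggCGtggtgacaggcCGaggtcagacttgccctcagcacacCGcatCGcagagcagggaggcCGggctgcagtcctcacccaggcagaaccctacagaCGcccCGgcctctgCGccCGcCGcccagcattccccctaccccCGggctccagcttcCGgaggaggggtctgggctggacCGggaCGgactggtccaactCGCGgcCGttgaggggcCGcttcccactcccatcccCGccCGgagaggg
Mafg: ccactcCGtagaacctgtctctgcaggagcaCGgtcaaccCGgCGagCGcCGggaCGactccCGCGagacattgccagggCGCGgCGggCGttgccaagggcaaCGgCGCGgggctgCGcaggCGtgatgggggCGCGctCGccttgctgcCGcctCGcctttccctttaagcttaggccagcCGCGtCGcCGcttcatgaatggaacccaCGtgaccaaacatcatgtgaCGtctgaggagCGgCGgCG

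For each of 130 tested features the nearest annotated row that was itself tested could be named. Feature and neighbour had log2 fold changes of the same sign in 79 of the 130, and the share among annotated pairs was not counted. Across these pairs, which share libraries, the Pearson correlation of the log2 fold changes was 0.11. Over 14701 annotated rows and their own nearest tested rows it was 0.079. The value of 0.11 includes feature 146, whose neighbour Shroom2 was at 0 CPM in the knockout. The log2 fold change of Shroom2, -7.70, depends on the prior count and lies far from the next lowest neighbour at -1.84. The correlation without that pair was not worked out. The ratio of feature to neighbour passed the test in 18 of the 130, 13.8%, against 15.6% of all tested rows, with 7 rises and 11 falls (limma on log2 CPM ratios, adjusted over all tested rows). In 12 of the 18 the feature itself had passed, in 6 the neighbour had passed, in 2 both and in 2 neither. These counts rest on the libraries too. The ratio passed in 8 features with knockout library 1, or wild-type library 2 or 3, left out, and in 10 without knockout library 3. With knockout library 2 and wild-type library 1 both left out it passed in 51. How many ratios of all rows passed in these reduced fits was not counted. The changes in number therefore cannot be read as particular to the features.

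In 4 of the 18 pairs with a passed ratio, only the neighbour had passed. These were picked by the ratio test, so a difference between feature and neighbour was given in advance. Among pairs whose ratio did not pass, some also had only the neighbour pass. The feature then moved by a similar amount in some, as feature 76 beside Prrg4, and not in others, as feature 6 beside Bzw1. The 4 pairs therefore do not show how features behave beside a changed neighbour. Zfp239, a zinc finger gene 6313 bases from feature 112 on the same strand of chromosome 6, fell from 17.5, 15.2 and 15.0 CPM in the wild type to 4.31, 4.37 and 4.61 CPM in the knockout. In the same libraries feature 112 was at 0.840, 1.01 and 1.86 CPM in the wild type and 2.07, 1.76 and 1.86 CPM in the knockout, and the ratio rose by 2.48 on the log2 scale (SE 0.367, limma adjusted p = 0.00394). Shroom2, an actin-binding protein gene 97285 bases from feature 146 on chromosome X, was at 0 CPM in every knockout library against 0.840, 0.861 and 1.26 CPM in the wild type. Feature 146 was at 1.98, 2.46 and 1.41 CPM in the knockout and 1.68, 1.65 and 2.13 CPM in the wild type (log2 fold change 0.10, adjusted p = 0.845). Because Shroom2 is at 0, the size of that ratio depends on the prior count and is not given. Next to feature 147 with its L1 domains, at a gap of 603 bases tail to tail, Car5b, a mitochondrial carbonic anhydrase gene, rose to 20.1 to 22.1 CPM from 9.85 to 12.2 CPM, and the ratio of feature 147 to it fell by 1.16 (limma adjusted p = 0.0153). The fourth was feature 17, at -1.07 (adjusted p = 0.0757), beside the RNA demethylase gene Alkbh5, which rose (0.44, adjusted p = 0.0205).

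**Figure D5:**
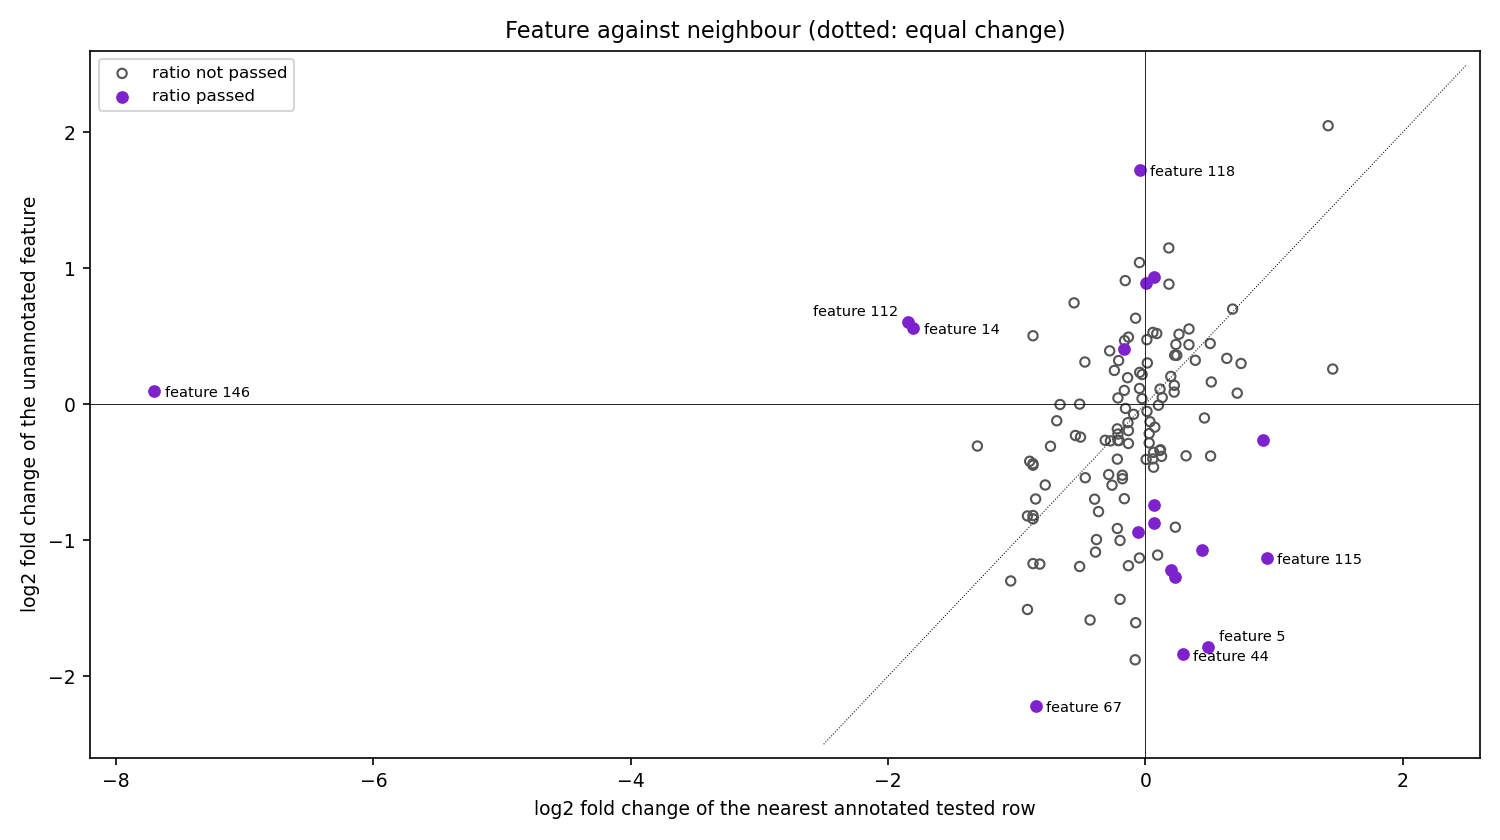
Log2 fold change of each of 130 features against that of its nearest annotated tested row, with the dotted line at equal change; filled points are the 18 features whose ratio to the neighbour passed, some of them named. The Pearson correlation over the 130 pairs is 0.11, and 79 of them share a sign. At the far left is feature 146, whose neighbour Shroom2 was at 0 in the knockout. The place of that point on the horizontal axis, which enters the correlation, depends on the prior count.

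Genes of the machinery that degrades or ends such RNAs were read from 2 lists. Of 28 names listed under the nuclear exosome and its cofactors, 26 were tested, 0 rose, 6 fell and 20 did not pass. The median log2 fold change was -0.12 against -0.02 over all tested rows. Of all tested rows 7.48% fell. Among the 6 falls, Mphosph10 (-0.83, adjusted p = 0.000943) is a nucleolar factor of ribosomal RNA processing rather than an exosome cofactor. The others were Zfc3h1, a scaffold of poly(A)-tail exosome targeting (-0.68, adjusted p = 0.0463), and the exosome subunit Exosc1 (-0.53, adjusted p = 0.00688). The cap-binding genes Ncbp1 (-0.52, adjusted p = 0.0328) and Ncbp2 (-0.35, adjusted p = 0.0283) and the exonuclease Dis3 (-0.42, adjusted p = 0.0466) also fell. Of 30 genes of RNA 3′ end formation and termination, all were tested, 0 rose, 3 fell and 27 did not pass, with a median of -0.13. The falls were Rbbp6 (-0.60, adjusted p = 0.00823), Pcf11 (-0.40, adjusted p = 0.0221) and Scaf4 (-0.39, adjusted p = 0.0276). Whether these changes bear on the levels of the unannotated features was not tested.

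By the authors' deposited table, 23 of the 159 features pass an adjusted p under 0.05, and 19 of these are among the 22 that passed here. How many of all rows pass by the authors' values is not given here, so the 23 cannot be set against a share. The authors' deposited table gives a log2 fold change of -2.11 for feature 67, 1.42 for feature 118 and -1.16 for feature 44, smaller in size than those above.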

How the data were processed

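RNA from 6 libraries of Hepa1-6 cells was measured, and groups and replicate numbers came from the sample titles and genotype labels. The 159 features and the 2 gene lists were chosen with earlier results of these data known. The authors deposited 1 table. Its counts per row are raw whole numbers by the file headers and values, and these deposited counts were tested as they stand. FPKM values made by the authors served only to compare levels between features. Their deposited signal (a scaled mean per group), deposited log2 fold changes and deposited p-values come from a comparison by the authors with an unstated tool. The aligner, the counter and the tool that made the unannotated models are likewise not given in the sources used. The submitters' processing notes name GRCm38 and mm10, yet of 52133 gene identifiers shared with GENCODE M21, which annotates GRCm38, only 1546 agree in their coordinates. The build was therefore not settled, and coordinates are those of the table.

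The count test was edgeR 4.0.16 in R 4.3.3: filterByExpr kept 14842 of 27065 rows with a count, TMM scaled the libraries, and the quasi-likelihood model had no covariate. Adjustment was by Benjamini-Hochberg over all tested rows, with calls under 0.05, and an adjusted p in the text is edgeR's unless limma is named. Fold changes are knockout over wild type. The ratio of a row to its nearest annotated tested row was tested in limma 3.58.1 with trend on log2 CPM with a prior count of 2, for all rows. Features named are the 14 with the smallest p, the 8 with the highest FPKM among those with a mean of at least 0.5 CPM, those at 0 in 1 group with at least 10 counts in the other, the longest and shortest, and the 4 with the smallest ratio p. Others were chosen after their values were seen. Same-numbered libraries of the 2 groups correlated in their deviations from the group means at 0.17, -0.03 and -0.20, so the numbers were not taken as pairs. Alternatives were other scalings, filters and tools (DESeq2 1.42.0, limma voom), a block for the replicate number, leaving out libraries, and other neighbours. The scripts were tested on simulated data. A floor of 3 counts stood for 0, which covers counting error only, since the reads carry no molecular identifiers and need not be separate molecules.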

Additional observations from a re-analysis of the deposited data

How the results depend on the processing

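The number of features that passed, 22, was 20 to 32 under other scalings, filters and tools, with 27 by DESeq2, 21 by limma voom and 32 of 152 with no filter on low counts. It was 7 to 32 when each library was left out in turn, 59 without knockout library 2 and wild-type library 1, and 8 at an adjusted p under 0.01. For all rows these values were 807 to 4295, 7556 and 721. For the ratio of feature to neighbour they were 8 to 25, 51 and 7, and the ratios of all rows were not counted in these alternatives. The summed level of the features differed by -560 CPM, by -506 to -664 with a library left out, and by -124 without feature 67, an alternative chosen after seeing the data. With the replicate number as a block, which the numbers do not warrant, 15 features, 1599 rows and 15 ratios passed. For feature 138 the log2 fold change turned to -0.17 without knockout library 2 and wild-type library 1. The causes were not tested. Features under about 1 CPM rest on few counts in each library. Among the features that passed, feature 5 lost its call in 8 of 14 alternatives and feature 10, at a higher level, in 9 of 15.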
